A study of Homo sapiens with 6 samples.

Results

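The endoplasmic reticulum (ER) genes described here are 33 listed by name, of 58735 genes in the deposited tables. They comprise chaperones, disulfide-forming enzymes, components of ER-associated degradation, the sensors and transcription factors of the unfolded protein response, and translocon subunits. They were taken by gene symbol, and each symbol matched 1 gene. RNA was sequenced from MOLT-3 cells, an established human line of T-cell acute lymphoblastic leukaemia, in 2 groups of 3 libraries. The first group was treated with the solvent DMSO and the second with compound E, an inhibitor of gamma-secretase, the protease that frees the active intracellular part of NOTCH receptors. The stated aim was to find genes under NOTCH1 control that might alter the response to chemotherapy. Both groups are the same line, and the sources used here give neither dose nor duration of treatment.

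Proteins entering the ER are folded by BiP (HSPA5) and its cochaperones, by the lectins calnexin and calreticulin, and by protein disulfide isomerases, and those that fail are drawn back to the cytosol for degradation. When unfolded protein builds up, 3 sensors respond. IRE1 (ERN1) splices the XBP1 messenger, ATF6 is cut to release a transcription factor, and PERK (EIF2AK3) phosphorylates the initiation factor eIF2 alpha, which favours translation of ATF4 and then expression of CHOP (DDIT3). ATF6 and spliced XBP1 are known for raising chaperone and degradation genes, whereas ATF4 raises amino acid, redox and stress genes and also answers to other kinases of eIF2 alpha.

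Total counts per library were 17316138 to 19845114, and the 33 ER genes had 28 to 16337 counts each per library. The NOTCH target DTX1 was lower with compound E by 4.60 on the log2 scale (standard error, SE, 0.0601, edgeR adjusted p = 6.19e-39), which checks the labels. All 12 T-cell markers examined had counts in every library, and their summed level was 4574 to 4620 CPM with DMSO and 5589.5 to 5677 with compound E. CPM are counts divided by the scaled size of the library. The higher sum lay in RAG1, of the recombinase, at a mean of 546 CPM with DMSO and 1583 with compound E, and the other 11 summed to 4037 to 4071 and 3990.1 to 4132. Among those 11, means of CD7 (113 and 68.3 CPM) and CD3D (482 and 379.6 CPM) were lower with compound E, and those of CD2 (42.7 and 82.0 CPM) and GATA3 (73.5 and 123 CPM) were higher. Markers of other cell types summed to 78.8 to 82.1 CPM with DMSO and 85.0 to 85.5 with compound E. Most of that sum lay in PECAM1, at a mean of 54.1 CPM with DMSO and 60.5 with compound E. CD79A (13.2 and 13.6 CPM) and COL1A1 (11.5 and 9.63 CPM) came next. Of those 12 markers, 4 (MS4A1, MPO, COL1A2 and HBB) were at 0 in every library. Whether the marker shifts had a part in the results below was not tested. In bulk RNA, fewer cells of a kind and less RNA per cell cannot be told apart. The labels do not say that replicates were separate cultures, so the spread behind each p-value is that between these libraries and may be technical.

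Promoter sequences of the ER genes are shown first because one pair of motifs recurs in them. The ER stress element (ERSE) is CCAAT and CCACG with 9 bases of any kind between them, and its second form (ERSE-II) is ATTGG and CCACG with 1 base between them. Both are sites through which ATF6 and XBP1 are known to act with NF-Y. Both strands were searched from 250 bases before to 50 after each RefSeq start on GRCh38.p14, in a table that held 30 of the 33 ER genes. The ERSE occurred in 27 of all 35116 windows (0.0769%), of which 10 were among the 38 windows of ER genes. Some genes have several windows, which can share a site. Counted by gene, it occurred in 8 of the 30 ER genes (26.7%). These were HSPA5, HSP90B1, CALR, CANX, PDIA6, ERO1B, CRELD2 and XBP1. The ERSE-II occurred in 19 windows (0.0541%), of which 3 were among those 38, and in 3 of the 30 genes, namely HYOU1, SDF2L1 and HERPUD1. The element was first described in chaperone promoters such as those of HSPA5, HSP90B1 and CALR, so its frequency among these genes is background and not a result of this experiment. A match is a run of letters, not evidence of binding.

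The 250 bases before the start of HSPA5 (chr9:125241344-125241593, minus strand) and of HYOU1 (chr11:119057206-119057455, minus strand) follow, 5′ to 3′ on the gene's strand, with the ERSE or ERSE-II in capitals. HSPA5 held 1 ERSE and HYOU1, an Hsp110-type chaperone, held the ERSE-II 2 times. A motif written CGTGG first lies on the opposite strand.

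HSPA5: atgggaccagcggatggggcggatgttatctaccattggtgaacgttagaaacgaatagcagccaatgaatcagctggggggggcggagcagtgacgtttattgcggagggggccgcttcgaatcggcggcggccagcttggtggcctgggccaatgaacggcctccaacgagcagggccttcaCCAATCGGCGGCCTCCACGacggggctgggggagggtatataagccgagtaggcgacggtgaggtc
HYOU1: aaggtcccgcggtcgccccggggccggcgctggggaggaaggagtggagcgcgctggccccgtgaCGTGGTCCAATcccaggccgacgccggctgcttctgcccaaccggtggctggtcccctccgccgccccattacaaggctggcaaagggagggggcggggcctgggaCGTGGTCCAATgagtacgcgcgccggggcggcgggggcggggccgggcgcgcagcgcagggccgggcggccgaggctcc

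Windows of 30 bases show the same motifs in the members whose response is described below: HSP90B1 (chr12:103930211-103930240 and chr12:103930316-103930345, plus strand), XBP1 (chr22:28800597-28800626, minus strand), CRELD2 (chr22:49918549-49918578, plus strand), SDF2L1 (chr22:21642105-21642134, plus strand), CALR (chr19:12938379-12938408, plus strand) and HERPUD1 (chr16:56932016-56932045, plus strand). The first 2 come from HSP90B1. In each of these genes some bases before the RefSeq start lie in exons annotated on the same strand in GENCODE release 29. In HSP90B1 that holds for all 250 bases and in HERPUD1 for 94, so only short windows are shown. CALR is shown because it carries an ERSE and was not called, and HERPUD1 because it carries the ERSE-II and fell.

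HSP90B1: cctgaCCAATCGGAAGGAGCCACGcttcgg
HSP90B1: gggtgCGTGGTGCGGCGCGATTGGtgggtt
XBP1: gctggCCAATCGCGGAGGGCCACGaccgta
CRELD2: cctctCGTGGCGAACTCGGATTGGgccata
SDF2L1: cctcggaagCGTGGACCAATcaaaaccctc
CALR: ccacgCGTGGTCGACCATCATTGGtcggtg
HERPUD1: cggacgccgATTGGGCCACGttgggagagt

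HERPUD1 also held the composite C/EBP-ATF element TGATGNAA, through which ATF4 and CHOP are known to act. It lies at -176 to -169 bases from the start, on the strand opposite to the gene. That motif is short and occurred in 1270 of the 35116 windows (3.62%). Among the 30 ER genes it was present in HERPUD1, which fell, and in CREB3L2, which rose (log2 0.20, edgeR adjusted p = 0.00125). Whether the element had a part in either change was not tested. The 30 bases around it in HERPUD1 (chr16:56931955-56931984, plus strand) follow, with the motif in capitals. Those of CHAC1 (chr15:40953251-40953280, plus strand) and ASNS (chr7:97872458-97872487, minus strand) are given with them. CHAC1 and ASNS are genes of the ATF4 arm described further on. Of the 250 bases before their starts, 250 and 134 lie in such exons.

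HERPUD1: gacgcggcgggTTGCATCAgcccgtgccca
CHAC1: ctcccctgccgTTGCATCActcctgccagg
ASNS: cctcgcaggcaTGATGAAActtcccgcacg

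**Figure D1:**
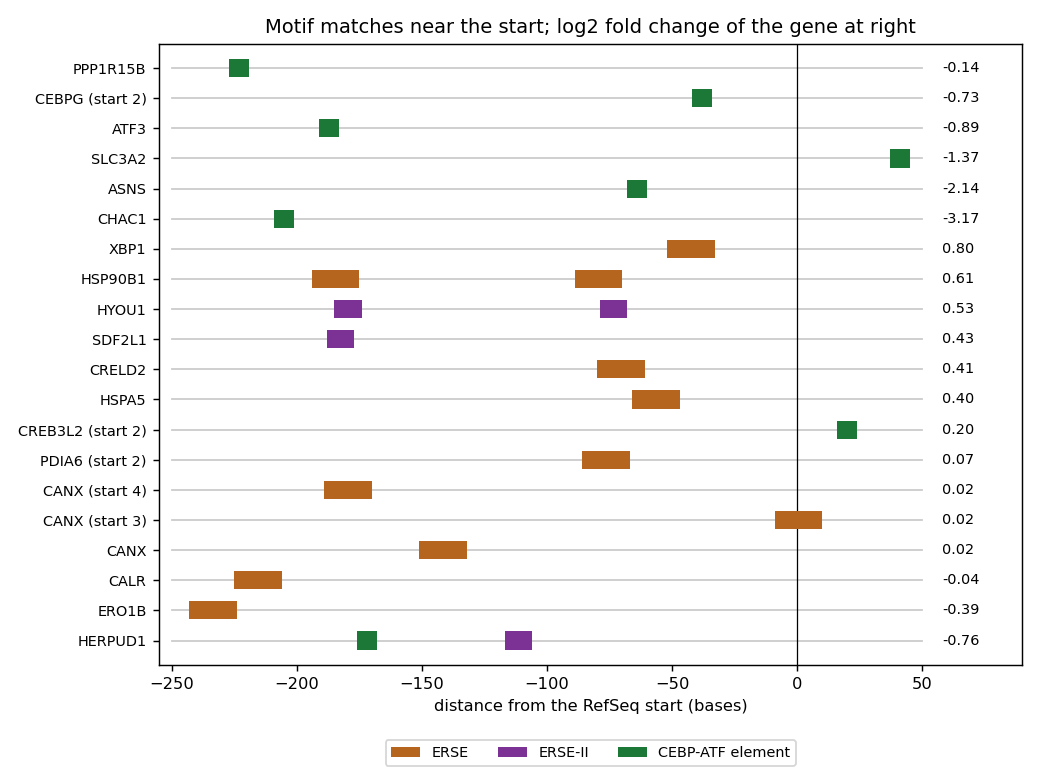
Positions of the 3 motifs from 250 bases before to 50 after the RefSeq start (horizontal axis, bases, start at 0) in ER genes (lower) and genes of the ATF4 arm (upper), with each gene's log2 fold change at the right. HERPUD1 holds both an ERSE-II and a C/EBP-ATF element, and 0 of the 16 genes of the ATF4 arm in the promoter table hold an ERSE or ERSE-II.

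With compound E, 3 of 5 listed chaperones, 4 of 5 cochaperones and 4 of 7 disulfide proteins were modestly higher, while the IRE1 sensor, HERPUD1 and the EDEM1 and EDEM3 mannosidase-like proteins were lower. Of the 33 ER genes, all of which passed the filter on low counts, 17 were higher (51.5%) at an adjusted p under 0.05. The share of all 16926 tested genes that were higher was 18.9%. Lower were 7 of the 33 (21.2%), against 19.4% of all tested genes, and 9 were not called. Over both directions 38.3% of tested genes were called. Among better expressed genes (5 CPM or more on average), which take in 32 of the 33, the share was 48.7%, with 25.7% higher and 23% lower. The median log2 fold change was 0.19 over the ER genes and -0.0034 over all tested genes. No ER gene changed by 2-fold or more (background 1.2% higher and 2.63% lower), and 4 changed by at least 1.5-fold: HSP90B1 and XBP1 upward, ERN1 and HERPUD1 downward. The share of all tested genes at 1.5-fold was not counted, so no background stands beside those 4.

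Compound E libraries all lay above the DMSO libraries in 20 ER genes (background 23.3%) and all below in 7 (background 23.5%), and the groups overlapped in 6. Over both directions the groups were apart in 46.8% of tested genes. SEL1L, EDEM2 and EIF2AK3 separated upward without reaching the adjusted threshold, while the other 17 genes that separated upward were those called higher.

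**Figure D2:**
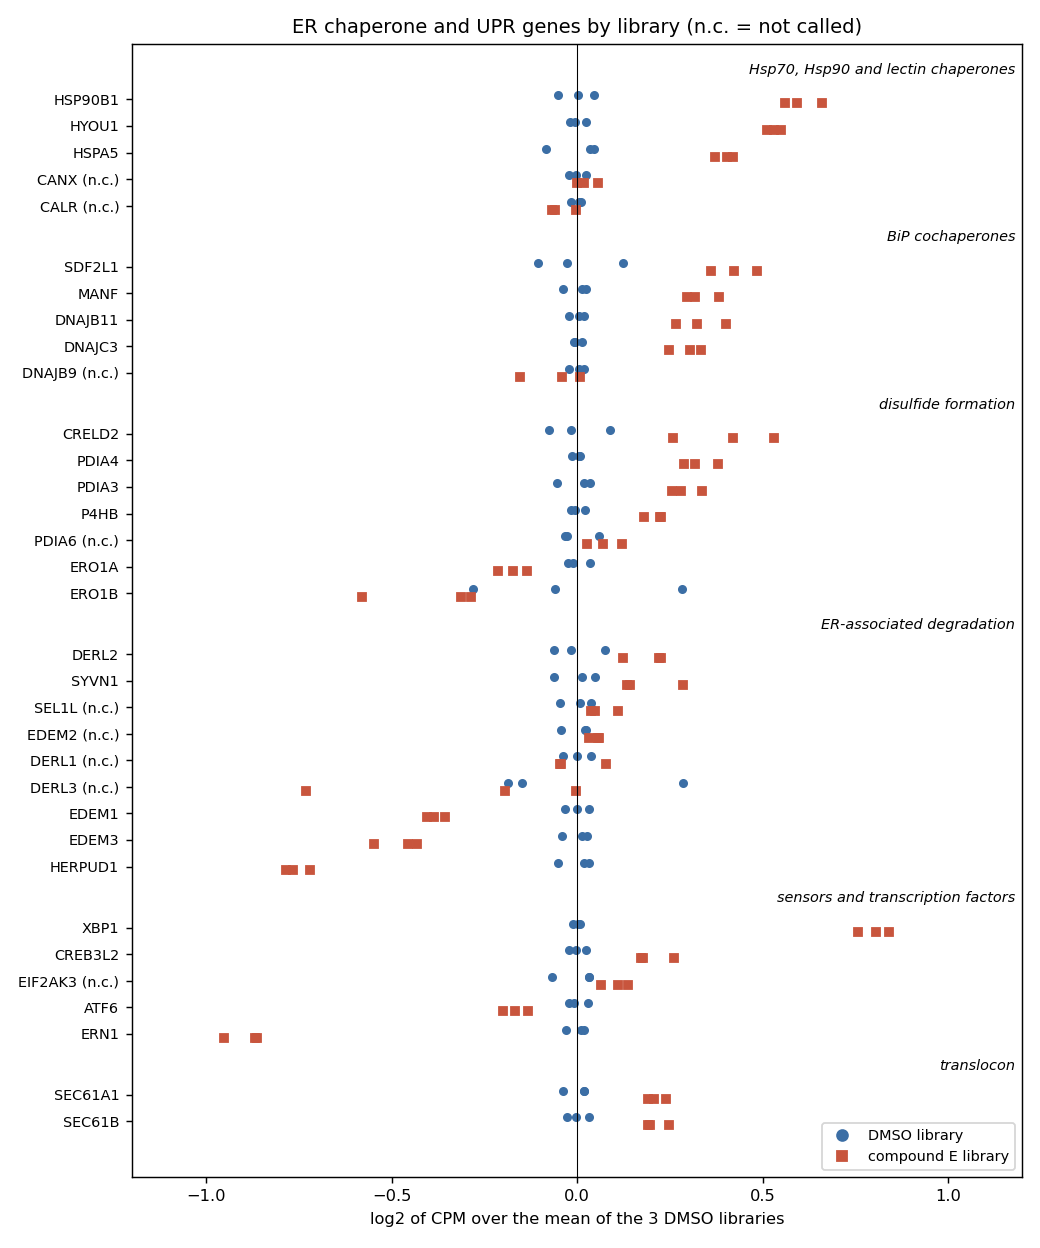
Each point is 1 library's CPM relative to the mean of the 3 DMSO libraries (log2, horizontal axis) for the 33 ER genes, ordered by role, with DMSO as circles and compound E as squares. HSP90B1 and XBP1 sit farthest right and HERPUD1 and ERN1 farthest left, while DERL3 and ERO1B show the widest spread between replicates.

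Among the Hsp70, Hsp90 and lectin chaperones, 3 of 5 rose (60%, against 18.9% of all tested genes). The other 2 were not called, and the median log2 fold change was 0.40. HSP90B1 (GRP94, the ER form of Hsp90; chromosome 12, 103930107 to 103953645, GRCh38) measured 179, 172 and 184 CPM with DMSO and 269, 282 and 263 with compound E. The groups were well apart, and the mean rose from 179 ± 5.99 to 272 ± 9.54 CPM (SD, n = 3 each). That is 1.52-fold, or 0.61 on the log2 scale (SE 0.0314, edgeR adjusted p = 4.84e-19).

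HYOU1 (chromosome 11, 119044189 to 119057202), the nucleotide exchange factor of BiP, measured 201, 197 and 195 CPM with DMSO and 281, 288 and 285 with compound E. The groups did not overlap, and it rose 1.44-fold (log2 0.53, SE 0.0285, edgeR adjusted p = 1.52e-18). HSPA5 (chromosome 9, 125234853 to 125241330), the central Hsp70 of the ER, measured 103, 94.5 and 103 CPM with DMSO and 129.7, 133 and 134 with compound E. Every treated library exceeded every control, and the rise was 1.32-fold (log2 0.40, SE 0.0364, edgeR adjusted p = 7.71e-12).

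The lectin chaperones, which hold glycoproteins during folding, did not pass the test. CALR measured 822, 824 and 809.9 CPM with DMSO and 781, 785 and 816 with compound E, and the groups overlapped (log2 -0.04, adjusted p = 0.158). It was called lower with upper quartile scaling (adjusted p = 0.0453) and without compound E replicate 3 (adjusted p = 0.0250). CANX measured 549, 531 and 538 CPM with DMSO and 546, 561 and 539 with compound E, again overlapping (log2 0.02, adjusted p = 0.499). Both lectin genes carry an ERSE in the windows searched, as do HSPA5 and HSP90B1.

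**Figure D3:**
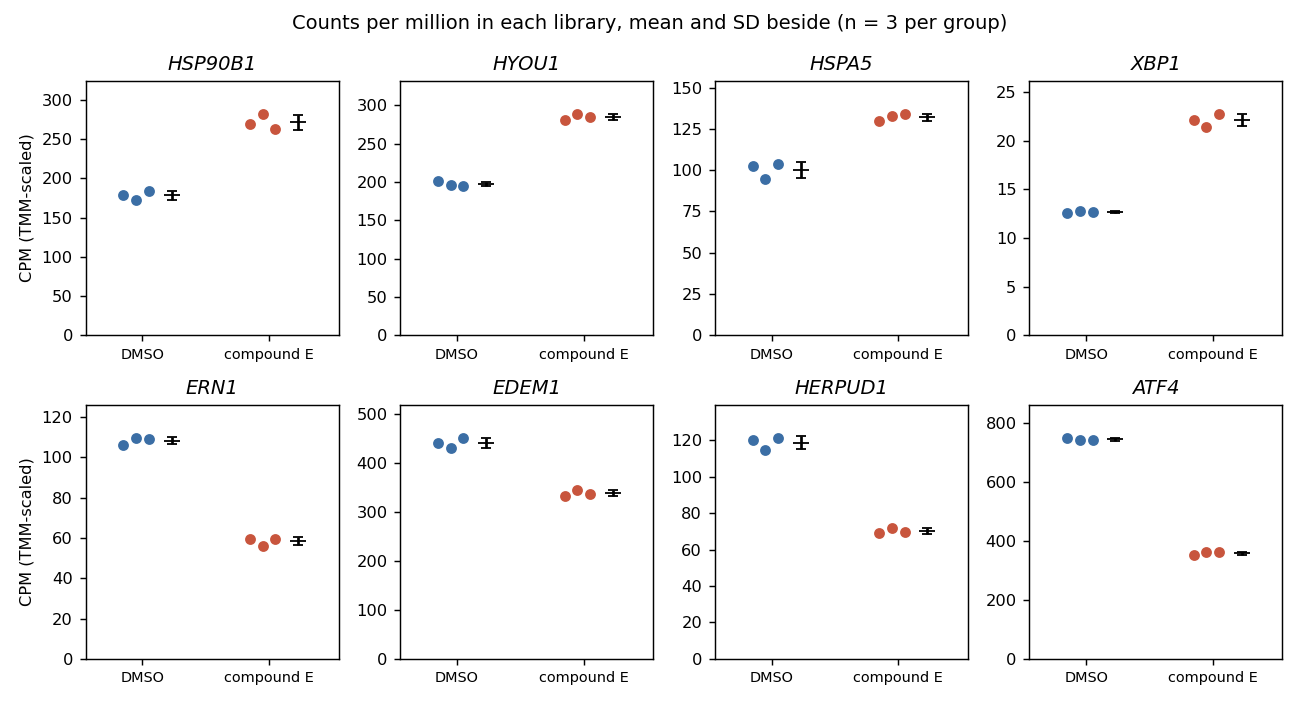
CPM (vertical axis, from 0) in each of the 6 libraries for 7 ER genes and ATF4, with the group mean and SD beside the points. HSP90B1, HYOU1, HSPA5 and XBP1 are higher with compound E and ERN1, EDEM1, HERPUD1 and ATF4 are lower, with no overlap between the groups in any of the 8.

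Of the 5 cochaperones and cofactors of BiP, 4 rose (80%, against 18.9% of all tested genes). Those 4 rose by similar amounts, and the median of the 5 was 0.33 on the log2 scale. SDF2L1, which binds the J-domain protein DNAJB11, measured 23.1, 21.9 and 25.7 CPM with DMSO and 31.6, 30.3 and 32.9 with compound E. It rose 1.34-fold (log2 0.43, edgeR adjusted p = 7.32e-07). DNAJB11, which delivers unfolded protein to BiP, measured 40.9, 41.6 and 42.0 CPM with DMSO and 54.8, 51.9 and 49.9 with compound E, a rise of 0.33 on the log2 scale (adjusted p = 6.76e-07). MANF, which stabilises BiP bound to clients, also rose by 0.33 (adjusted p = 6.79e-07), and DNAJC3, a further J-domain protein, by 0.29 (adjusted p = 2.55e-05).

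DNAJB9 (ERdj4), a J-domain protein that restrains IRE1 through BiP, differed from the other 4 in its call. Its values of 14.2, 14.4 and 14.0 CPM with DMSO and 14.3, 12.8 and 13.8 with compound E overlapped (log2 -0.06, SE 0.0835, adjusted p = 0.612). Its difference from the other cochaperones was not itself tested. On the opposite strand, its exons overlap those of THAP5 over 6.45% of their bases and those of PNPLA8 over 3.49%. THAP5 had 8386 counts over the 6 libraries and PNPLA8 4332, beside 1554 for DNAJB9, and the strand setting of the counting is not given.

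In the disulfide group 4 of 7 rose (57.1%, against 18.9% of all tested genes) and 2 fell (28.6%, against 19.4%). The median was 0.21 on the log2 scale. CRELD2, an ER-resident protein with thiol-disulfide activity, measured 25.8, 26.9 and 28.95 CPM with DMSO and 36.4, 32.5 and 39.3 with compound E, 1.33-fold higher (log2 0.41, edgeR adjusted p = 1.49e-06). Among the disulfide isomerases PDIA4 rose from 149, 151 and 151 to 184, 188 and 196 CPM (log2 0.33, adjusted p = 3.36e-11). PDIA3 (ERp57), the partner of calnexin and calreticulin, rose by 0.29 (adjusted p = 7.17e-09), and P4HB, the founding member of the family, by 0.21 (adjusted p = 4.29e-08). PDIA6 was not called (log2 0.07, adjusted p = 0.177), and its groups overlapped.

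The oxidases that pass oxidising equivalents to the isomerases went the other way. ERO1A measured 71.8, 71.1 and 74.0 CPM with DMSO and 62.3, 65.8 and 64.1 with compound E and fell by 0.17 on the log2 scale (SE 0.0416, edgeR adjusted p = 0.000859). ERO1B, its scarcer paralog, measured 11.5, 7.77 and 9.07 CPM with DMSO and 7.60, 7.74 and 6.32 with compound E. The nearest libraries of the groups were 7.77 and 7.74, and the fall of 0.39 (SE 0.124, adjusted p = 0.0117) depended on single libraries. Without DMSO replicate 1 the log2 fold change was -0.22 (adjusted p = 0.223), without compound E replicate 3 the adjusted p was 0.0858, and with DESeq2 it was 0.0515. With limma on FPKM it was 0.144 to 0.334.

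The 9 genes of ER-associated degradation had 2 higher (22.2%, near the 18.9% of all tested genes) and 3 lower (33.3%, against 19.4%). The other 4 were not called, and the median was -0.0034. The share called was 55.6%, against 38.3% of all tested genes and 48.7% of those at 5 CPM or more. HERPUD1 (chromosome 16, 56932048 to 56944863), which organises the HRD1 ubiquitin ligase complex, measured 120.1, 114 and 121 CPM with DMSO and 68.9, 72.0 and 69.7 with compound E. The mean fell from 119 ± 3.67 to 70.2 ± 1.63 CPM (SD, n = 3 each), 1.69-fold lower (log2 -0.76, SE 0.0380, edgeR adjusted p = 1.76e-19). It was the largest fall of the 9.

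EDEM1 and EDEM3 act on the mannose residues that mark misfolded glycoproteins for removal. EDEM1 measured 441, 431 and 451 CPM with DMSO and 333, 345 and 337 with compound E, and was 1.30-fold lower (log2 -0.38, SE 0.0269, edgeR adjusted p = 6.02e-15). EDEM3 measured 166, 160.1 and 168 CPM with DMSO and 119.9, 122 and 113 with compound E, and was 1.39-fold lower (log2 -0.48, SE 0.0342, adjusted p = 9.58e-15). The groups did not overlap in either gene. EDEM2 was not called (log2 0.05, adjusted p = 0.59).

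The ligase itself was slightly higher. SYVN1 (HRD1) measured 41.7, 42.8 and 39.6 CPM with DMSO and 45.6, 45.4 and 50.4 with compound E (log2 0.19, edgeR adjusted p = 0.00366). Its adaptor SEL1L was not called (log2 0.07, adjusted p = 0.136). Of the derlins, which help form the exit channel, DERL2 rose by 0.19 (adjusted p = 0.00333) and DERL1 was not called (-0.0034, adjusted p = 0.96). The calls of SYVN1 and DERL2 were lost when limma was run on unfiltered FPKM (adjusted p = 0.0873 and 0.0701).

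DERL3 was the lowest of the ER genes, at 2.23, 2.17 and 3.01 CPM with DMSO and 2.46, 2.16 and 1.49 with compound E, and was not called (log2 -0.27, SE 0.217, adjusted p = 0.349). Its exons overlap those of SMARCB1 on the opposite strand over 77.0% of their bases, and the sources used here do not say whether counting used the strand. SMARCB1 had 28485 counts over the 6 libraries and DERL3 had 250. SYVN1 shares 398 exon bases with FAU on the same strand, and PDIA3 had 13775 counts beside 708 for its pseudogene PDIA3P1, so small shifts in either are uncertain in the same way.

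Among the sensors and transcription factors, XBP1 rose, ERN1 and ATF6 fell and EIF2AK3 was not called. XBP1 (chromosome 22, 28794555 to 28800597) measured 12.6, 12.8 and 12.7 CPM with DMSO and 22.2, 21.5 and 22.7 with compound E. Its mean rose from 12.7 ± 0.0915 to 22.1 ± 0.640 CPM (SD, n = 3 each), 1.74-fold (log2 0.80, SE 0.0750, edgeR adjusted p = 1.57e-11), the largest rise of the 33. Gene counts do not separate the spliced from the unspliced messenger, so IRE1 activity was not measured here.

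ERN1 (chromosome 17, 64039142 to 64130819), which encodes IRE1 alpha, measured 106, 109.7 and 109 CPM with DMSO and 59.4, 56.0 and 59.6 with compound E. Its mean fell from 108 ± 1.92 to 58.3 ± 2.01 CPM (SD, n = 3 each), 1.86-fold lower (log2 -0.89, SE 0.0396, edgeR adjusted p = 3.25e-21), the largest fall of the 33. The kinase-nuclease and the messenger it splices thus differed in direction, and their groups did not overlap in either gene.

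ATF6 measured 57.0, 59.1 and 57.5 CPM with DMSO and 51.5, 50.4 and 52.8 with compound E and fell by 0.17 on the log2 scale (SE 0.0452, edgeR adjusted p = 0.00312). EIF2AK3, which encodes PERK, measured 31.9, 29.8 and 31.9 CPM with DMSO and 34.3, 32.6 and 33.6 with compound E (log2 0.11, SE 0.0564, adjusted p = 0.145). CREB3L2, a membrane-bound transcription factor of the ATF6 kind that serves secretory cargo export, rose by 0.20 (adjusted p = 0.00125). Both translocon subunits, which form the channel into the ER, rose by 0.21, SEC61A1 from 158, 165 and 165 to 188, 185 and 192 CPM (adjusted p = 4.22e-07) and SEC61B from 68.8, 70.5 and 67.7 to 79.1, 81.9 and 78.7 (adjusted p = 4.36e-05).

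Levels between genes were compared per length, as FPKM. CALR was the most abundant ER gene with DMSO, at 299 ± 2.99 FPKM (SD, n = 3) and 30.9% of the summed FPKM of the 33, followed by CANX at 85.7 ± 1.54 and EDEM1 at 64.7 ± 1.48. At the other end were XBP1 at 4.15 ± 0.0237, ERO1B at 1.75 ± 0.353 and DERL3 at 0.644 ± 0.121. Of the 32 pairs of neighbours in this order, 12 overlapped between DMSO libraries, among them PDIA3 with HSPA5 and ERN1 with ERO1A, so their order is not resolved. The 4 members that changed by at least 1.5-fold changed place, as did others. Among the 4, ERN1 went from rank 20 with DMSO to 29 with compound E. XBP1 went from 31 to 23, HERPUD1 from 12 to 16 and HSP90B1 from 7 to 5. Among the others, EDEM1 went from 3 to 7 and DNAJB11 from 24 to 20. Overlap of neighbours was examined with DMSO only. With compound E, the mean of HSP90B1 (57.6 FPKM) lay close to that of PDIA4 (57.4), and that of HERPUD1 (13.6) to that of SEL1L (13.5). HSPA5 kept rank 10 and ERO1B rank 32.

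**Figure D4:**
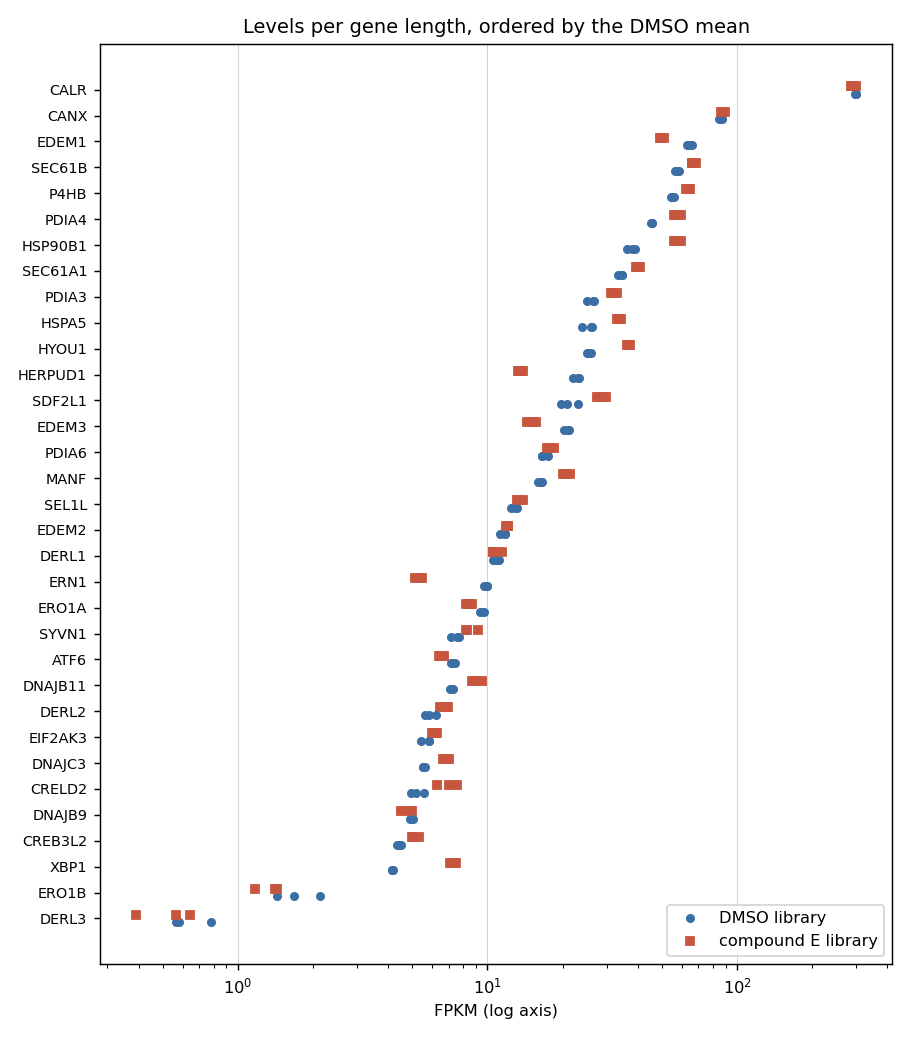
FPKM of each ER gene in each library (log horizontal axis), ordered by the DMSO mean, with DMSO as circles and compound E as squares. CALR lies at the top near 299 FPKM, and ERN1, XBP1 and HERPUD1 show visible gaps between the groups.

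The summed counts of the 33 genes differed little, with higher shares in some role groups and lower shares in others. They made up 0.424%, 0.418% and 0.426% of all counts with DMSO and 0.437%, 0.440% and 0.437% with compound E, a difference of 0.0152 percentage points. Without HSP90B1, HSPA5 and CALR it was 0.00545 points. The 5 chaperones went from 0.183% ± 0.00180 to 0.203% ± 0.00136 (SD, n = 3 each), the disulfide group from 0.0734% ± 0.00131 to 0.0843% ± 0.000489, and the degradation group from 0.103% ± 0.00231 to 0.0846% ± 0.00163.

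All 33 ER genes were then set beside genes of the PERK type. The 33 also hold the sensors, PERK (EIF2AK3) among them, so they are not purely of the ATF6 and XBP1 type. A list of 20 genes of the PERK, ATF4 and CHOP arm had 19 tested, of which 17 fell (89.5%, against 19.4% of all tested genes), 1 rose and 1 was not called, with a median log2 fold change of -1.42. Of the 17, 12 fell at least 2-fold, against 2.63% of all tested genes. The list was chosen with earlier results of these data known, so these shares describe it and test nothing. The list made up 0.204% ± 0.00137 of all counts with DMSO and 0.0998% ± 0.000903 with compound E (SD, n = 3 each). The 33 ER genes had a median of 0.19 and none at 2-fold in either direction. The difference between the lists was not tested, and many genes of the list respond to ATF4 under amino acid shortage as well as under ER stress.

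ATF4 (chromosome 22, 39519695 to 39522685), the transcription factor of this arm, measured 748, 739.9 and 741 CPM with DMSO and 351, 361 and 360.0 with compound E. It was 2.08-fold lower (log2 -1.06, SE 0.0253, edgeR adjusted p = 4.75e-30), and its groups lay far apart. DDIT3 (CHOP), a pro-apoptotic factor induced by ATF4, measured 13.9, 13.7 and 14.0 CPM with DMSO and 5.09, 5.20 and 5.26 with compound E, 2.68-fold lower (log2 -1.42, adjusted p = 1.96e-14). Its exons overlap MARS on the opposite strand over 27.2% of their bases, and MARS had 28049 counts beside 1070 for DDIT3.

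The other members of the list with the smallest p were targets of ATF4. SLC7A11, the cystine transporter, fell by 3.65 on the log2 scale (SE 0.0655), its partner chain SLC3A2 by 1.37 (SE 0.0283) and the stress sensor SESN2 by 2.16 (SE 0.0595). CHAC1, which breaks down glutathione, and ASNS, asparagine synthetase, whose C/EBP-ATF elements are printed above, fell by 3.17 (edgeR adjusted p = 3.2e-26) and by 2.14 (adjusted p = 5.01e-10). EIF2S1, which encodes the subunit that PERK phosphorylates, was the 1 that rose (0.09, SE 0.0345, adjusted p = 0.0314), and that call was lost with upper quartile scaling (adjusted p = 0.0763), with DESeq2 (0.0792), with limma on unfiltered FPKM (0.0597) and without DMSO replicate 1 (0.0532) or 2 (0.175). Leaving out compound E replicate 1 (0.0592) or 3 (0.0538) also ended it. GADD45A, a growth-arrest gene, was not called (-0.22, adjusted p = 0.13), and NUPR1 was too low to test.

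Motifs and calls were read side by side. Of the 11 ER genes with an ERSE or ERSE-II, 6 rose, 2 fell and 3 were not called, with a median of 0.40. Of the 19 with neither in the windows searched, 10 rose, 5 fell and 4 were not called, with a median of 0.19. A site outside those windows, or one that departs from the exact letters, would be missed. For DNAJB9, DNAJB11 and ERN1, all 250 bases before the RefSeq start lie in exons annotated on the same strand. The share that rose was similar in both sets. Over all 33 ER genes 51.5% rose, against 18.9% of all tested genes, and 21.2% fell, against 19.4%. The difference between the sets was not tested. The 2 that fell with such a motif were HERPUD1 and ERO1B. Of 16 genes of the PERK list in the promoter table, 6 held a C/EBP-ATF element (ATF3, CHAC1, PPP1R15B, CEBPG, ASNS and SLC3A2) and 0 held an ERSE or ERSE-II.

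**Figure D5:**
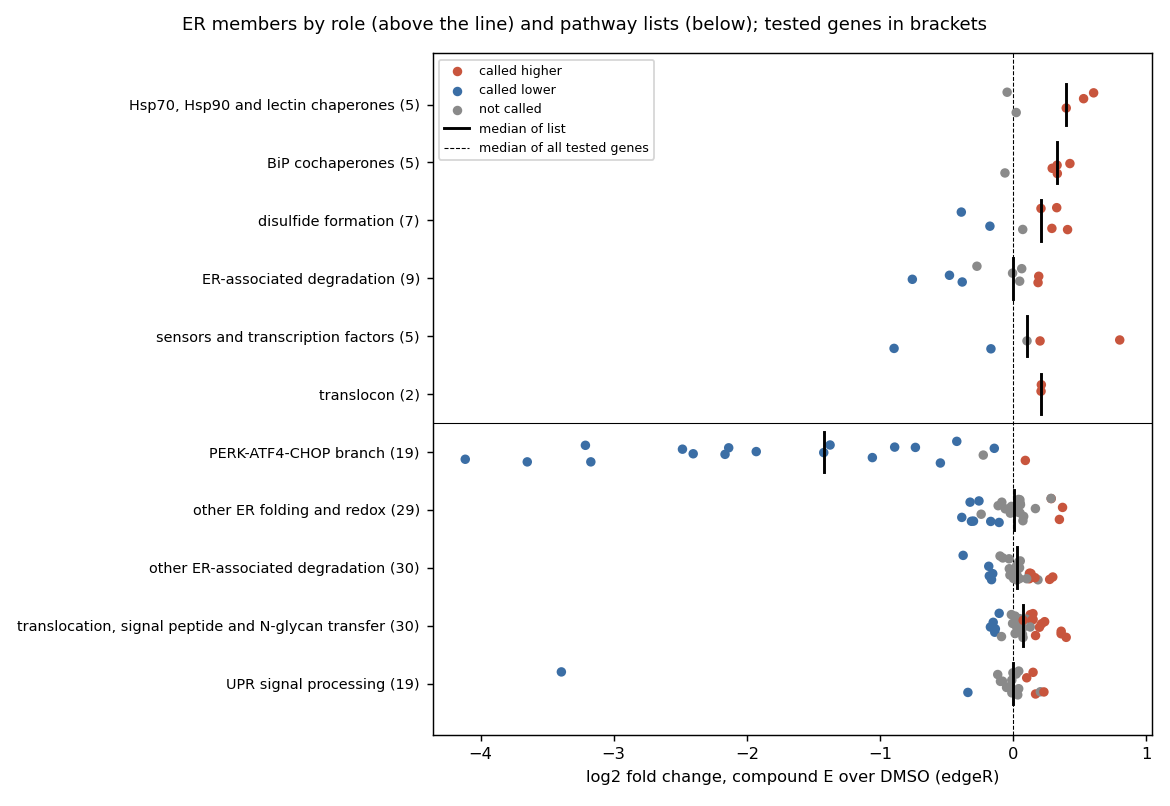
Log2 fold change (horizontal axis) of each tested gene in the 6 role groups of the ER genes and in the 5 pathway lists, coloured by call, with black bars at list medians and a dashed line at the median of all tested genes. The PERK, ATF4 and CHOP list has its median at -1.42, and every other list has its median between -0.0034 and 0.40.

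The rest of the ER machinery was taken from 4 further lists, none of which was tested against the 33. Of 29 tested genes for other folding and redox functions, 3 rose (10.3%, against 18.9% of all tested genes) and 7 fell (24.1%, against 19.4%), with a median of 0.0076. The share called in either direction, 34.5%, was near the 38.3% of all tested genes. PPIB, the ER cyclophilin, rose by 0.35 on the log2 scale (edgeR adjusted p = 1.8e-07), the prolyl isomerase FKBP2 by 0.29 and the thioredoxin-domain protein TXNDC11 by 0.37. ERP29, an escort protein of the disulfide isomerase fold, fell by 0.38 (adjusted p = 2.42e-11), the calnexin homolog CLGN by 0.31, TXNDC12 by 0.32 and the glucosidase subunit PRKCSH by 0.17. The call of TXNDC12 was lost with limma on unfiltered FPKM (adjusted p = 0.0501).

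Among 30 other genes of ER-associated degradation 6 rose and 5 fell, with a median of 0.03. The share called, 36.7%, was near the 38.3% of all tested genes. VCP, the ATPase that extracts substrates from the membrane, rose by 0.30 (edgeR adjusted p = 7.26e-12) from a mean of 294.5 to 362 CPM. Its cofactor NPLOC4 rose by 0.28, the ubiquitin-conjugating enzyme UBE2G2 by 0.12 and FAF2 by 0.14. Lower were HM13, the signal peptide peptidase, by 0.18, TMUB1 by 0.18, UBXN6 by 0.16 and UBXN8 by 0.37. With limma on unfiltered FPKM the calls of FAF2, TMUB1 and UBXN8 were lost (adjusted p = 0.0655, 0.0860 and 0.0814), and that of FAF2 also without DMSO replicate 2 (0.0557).

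Genes for translocation, signal peptide cleavage and N-glycan transfer numbered 30, of which 12 rose (40.0%, against 18.9% of all tested genes) and 5 fell (16.7%, against 19.4%), with a median of 0.07. STT3B, a catalytic subunit of the oligosaccharyltransferase, rose from a mean of 317 to 418 CPM, or by 0.40 (edgeR adjusted p = 6.96e-16), whereas the other catalytic subunit, STT3A, fell by 0.13 (adjusted p = 0.00397). DAD1, a shared subunit of that enzyme, and SEC61A2, a paralog of SEC61A1, each rose by 0.36, and SRP9 of the signal recognition particle rose by 0.17. SRP72 of the same particle fell by 0.17, SEC63 of the translocon by 0.14 and OSTC by 0.15. The calls of STT3A, SEC63 and OSTC were lost with limma on log2(FPKM + 1), and that of SRP72 where it was also unfiltered (adjusted p = 0.0559). That of SEC63 was lost without DMSO replicate 1 or compound E replicate 1 (adjusted p = 0.104 and 0.0567). That of OSTC was lost with DESeq2 (adjusted p = 0.313) and without DMSO replicate 2, DMSO replicate 3 or compound E replicate 3, the last of which gave a log2 fold change of -0.05.

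Genes that process or relay the response had 19 tested, and 4 of them rose (21.1%, near the 18.9% of all tested genes) while 2 fell (10.5%, against 19.4%). The median was -0.00075. NFYA, a subunit of the NF-Y factor that binds the CCAAT part of the ERSE, rose by 0.23 (edgeR adjusted p = 5.92e-07), BCAP31 by 0.15, CREB3 by 0.17 and the heme-regulated eIF2 alpha kinase EIF2AK1 by 0.10. MBTPS1, the site-1 protease that cuts ATF6, fell from a mean of 229 to 181 CPM, or by 0.34 (adjusted p = 4.4e-12). CREB3L1, a membrane-bound factor related to CREB3L2, fell from 3.49 to 0.326 CPM, or by 3.39 on the log2 scale (SE 0.278, adjusted p = 4.41e-13). With a pseudocount of 1 on FPKM, which understates changes of low genes, the log2 fold change of CREB3L1 was -0.78. DESeq2 did not call CREB3 (adjusted p = 0.0769) or EIF2AK1 (0.0957), and limma on unfiltered FPKM did not call BCAP31 (0.0745) or EIF2AK1 (0.130). Upper quartile scaling (adjusted p = 0.0745), the filter of 5 CPM in 3 libraries (0.0512) and limma on filtered FPKM (0.0664 and 0.0663) did not call EIF2AK1 either. The call of CREB3 was also lost without DMSO replicate 3 or compound E replicate 2 or 3, and that of EIF2AK1 without DMSO replicate 1 or 2 or compound E replicate 2 or 3.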

How the data were processed

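Polyadenylated RNA was purified with oligo-dT beads and made into NEBNext Ultra libraries, per the labels' protocols. The deposited tables, made by the authors, hold whole-number read counts per gene and FPKM (counts scaled by gene length and library depth) for 6 libraries. HISAT2 2.0.5, featureCounts 1.5.0-p3 and DESeq2 1.16.1 are named in the submitters' processing notes, without their roles. The sources used here give no genome build, annotation, strand setting or handling of multiply mapped reads. GENCODE release 29 matched all 58735 gene identifiers in position, strand and name, so gene coordinates are on GRCh38.

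Counts were fitted in R 4.3.3 with edgeR 4.0.16 (filterByExpr, TMM scaling, quasi-likelihood F-test, treatment as the only term), with Benjamini-Hochberg adjustment over 16926 genes and calls at an adjusted p under 0.05. CPM values are TMM-scaled. Log2 values were computed here, and an SE is the size of the log2 fold change divided by the square root of F. Totals ran from 17316138 to 19845114 counts, which limits genes of few counts most. Promoter windows came from RefSeq (GRCh38.p14). PDIA3, DERL1 and DERL3 had no entry in that table.

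The 33 genes and all lists were chosen with earlier results of these data known. All 33 are accounted for. From each pathway list the text names up to 4 called genes per direction with the smallest p, plus ATF4 and DDIT3. CHAC1, ASNS, GADD45A and NUPR1 were named after their values were seen, and the background among genes of at least 5 CPM was added then too. Alternatives were other scalings, filters, DESeq2 1.42.0, limma 3.58.1 (voom, or log2 FPKM with a pseudocount of 1 or 0.1), the replicate number as a block and each library left out. The fit was tested on simulated counts, with 50 genes changed at each of 1.2, 1.5, 2 and 4-fold, far fewer than were called here. At 1.2-fold, over genes of all levels, 26% to 40% of the changed genes were recovered, so small changes may go uncalled. In all 5 draws with gene-specific dispersions, and in 3 of 5 with trended ones, the share of false calls was above 0.05, so calls near the threshold are less certain than their adjusted p. Figures used matplotlib 3.10.9. No library was left out.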

Additional observations from a re-analysis of the deposited data

How the results depend on the processing

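Of the 24 called ER genes, 21 kept their direction and call under all 17 alternatives, and of the 9 uncalled 7 stayed uncalled with the same sign. The exceptions among the called were ERO1B, DERL2 and SYVN1. CALR gained a call under 2 alternatives. The filter of 5 CPM in 3 libraries left out DERL3. DERL1, which was not called, changed sign. Its log2 fold change was 0.00226 with no filter, 0.00281 with limma on log2(FPKM + 1) with or without the filter and 0.00299 with log2(FPKM + 0.1), and -0.0424 to 0.0185 when 1 library was left out (0.0182 without DMSO replicate 1, 0.0185 without compound E replicate 1, 0.0174 without compound E replicate 3). ER genes higher numbered 17 in every fit without 1 library and 15 to 17 otherwise, and ER genes lower 6 to 7 and 6 to 8. PERK-list genes lower numbered 17 in every fit without 1 library and 15 to 17 otherwise. The 1 that was higher, EIF2S1, became 0 with upper quartile scaling, with DESeq2 and with limma on unfiltered FPKM, and 0 to 1 when 1 library was left out (0 without DMSO replicate 1 or 2 or compound E replicate 1 or 3). All changed genes numbered 6484, 4002 with limma on unfiltered FPKM and 5671 to 6068 without 1 library. The difference in the summed share was 0.0152 points, 0.0128 to 0.0170 without 1 library and 0.00545 without HSP90B1, HSPA5 and CALR. Over 68 genes and their alternatives, 1094 fits gave the same call and direction, 51 lost the call, 2 gained one and 7 changed sign; the cause was not tested. Replicate numbers did not pair the samples (correlations of deviations 0.0103, -0.0191 and 0.000118, and 1 of 3 numbers matched itself best). With a replicate block, 17 ER genes were higher and 7 lower, and 6138 genes changed in all.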
